A study of Rattus norvegicus with 6 samples.

Results

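The expressed long noncoding RNAs of rat cells labelled PC12 are described here. They are the gene models with the biotype lincRNA, lncRNA or antisense and a mean of at least 2 FPKM over the 6 libraries. FPKM is the number of reads scaled to gene length and library size. Members were thus selected on measured values, their mean FPKM over all libraries together. The rule took 66 of the 33350 gene models, namely 65 lincRNA models and 1 antisense model, and it made no use of the treatment groups. The 6 libraries fall into 3 labelled EN and 3 labelled EC. EN cells had received exosomes from endothelial cells with high expression of netrin-1 (NTN1), a secreted guidance protein, and EC cells had received exosomes from control endothelial cells. All 6 libraries come from the same line, PC12, a rat adrenal pheochromocytoma line. Since the labels name no separate cultures, the spread between replicates may be technical, and the p-values refer to that spread alone.

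Long noncoding RNAs are transcripts that are not translated into a known protein. Some act in the nucleus on chromatin or on splicing, some serve as precursors of small nucleolar RNAs, and many have no known role. They are often transcribed near protein-coding genes, and a frequent arrangement is the divergent pair, in which a noncoding and a coding gene start close together and run in opposite directions. Their levels are in general lower than those of mRNAs and vary more between cell types.

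The total of reads was 16654025 to 19626012 in EN libraries and 15296193 to 16165804 in EC libraries, with no overlap between the groups. Markers of the labelled cell type were low. Of 11 chromaffin and catecholamine genes, 2 reached the 1 FPKM needed for testing (Th and Slc18a2), and Hand2 was without a read. Their summed level was 6.37 to 6.58 FPKM in EN and 6.47 to 7.44 FPKM in EC. Of 9 Schwann cell and glial genes, 8 were tested, and 1 passed as higher and 5 as lower in EN. Among all tested genes, 7.24% passed as higher and 7.14% as lower. Without EN replicate 2 or EC replicate 2, 0 of the list passed as higher and 4 as lower. The summed level of the 9 genes was 413 to 446 FPKM in EN and 467 to 477 FPKM in EC. Of 5 endothelial genes in the table, 1 was tested and did not pass, and their summed level was 1.40 to 1.77 FPKM in EN and 1.34 to 1.59 FPKM in EC. The part of depth or of these marker genes in the results given below was not tested. Ntn1 had 2 reads over the EN libraries and 2 over the EC libraries.

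Few annotated long noncoding genes were expressed. Of the 3046 models of these biotypes (3023 lincRNA, 23 antisense and 0 lncRNA), 2093 had no read in any library, or 68.7%, against 24.8% of protein_coding models. A mean of 2 FPKM was reached by 2.17% of the long noncoding models and by 45.3% of the protein_coding models. The members were also lower and shorter. Their median level was 4.35 FPKM and their median length 924.5 bases, while the protein_coding models at 2 FPKM or more had medians of 17.4 FPKM and 2353 bases. The median member had 78.8 reads per library, against 726.5 for these protein_coding models, and 23 of the 66 members had fewer than 50. All members together held 0.0666% to 0.0692% of the reads in EN and 0.0687% to 0.0710% in EC. The members lay on 19 chromosomes, with 9 each on chromosomes 1 and 3 and 6 each on chromosomes 5 and X. A single member, LOC102549726, carried a symbol other than a clone or assembly name. Of 78 symbols of well-known long noncoding RNAs that were looked up, 3 matched a model (Snhg11, Miat and Terc), and all 3 were without a read. This search was by symbol, and known noncoding RNAs may stand in the table under other names. One model without a symbol or biotype, and so outside the rule, carries the description of metastasis-associated lung adenocarcinoma transcript 1, a noncoding RNA of nuclear speckles, and averaged 12.96 FPKM.

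The highest member was AABR07070131.1, a lincRNA model of 649 bases on chromosome 8 (53831526 to 53838620, plus strand, Rnor_6.0 build). Its level was 83.6, 80.2 and 83.6 FPKM in EN replicates 1 to 3, against 94.5, 101.9 and 90.4 FPKM in EC replicates 1 to 3. All EN values lay below all EC values. It stood well above the rest, although 888 protein_coding models were at least as high.

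Next came Rn60_13_0828.1, a model of 3925 bases on chromosome 13 (77784808 to 77822333, plus strand), with 39.3, 39.1 and 39.7 FPKM in EN and 41.5, 41.5 and 40.7 FPKM in EC. It was the most deeply covered member, with 2460 to 3056 reads per library. The EN values were again all below the EC values, with a log2 change of -0.07 (SE 0.034) that did not pass the test (limma adjusted p = 0.229). A protein_coding model without a read, AABR07021544.1, overlaps it on the other strand.

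The third, AABR07002969.1 on chromosome 1 (90820595 to 90848674), had 40.2, 41.4 and 43.2 FPKM in EN and 35.5, 38.2 and 40.9 FPKM in EC, and the groups overlapped. AABR07049695.3 on chromosome 5 had 16.2, 18.7 and 18.8 FPKM in EN, all below the EC values of 19.5, 21.1 and 21.6 FPKM, and did not pass (adjusted p = 0.098). AC098981.1 on chromosome 1, a model of 119 bases with 26 to 59 reads per library, had 19.7, 19.8 and 29.9 FPKM in EN and 16.9, 14.5 and 13.6 FPKM in EC. Its EN values were all above its EC values, but it missed the threshold (log2 change 0.58, adjusted p = 0.059).

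Among the 10 highest, AABR07048321.1, Rn60_20_0056.5 and AABR07073038.2 had group means of 15.2, 12.5 and 12.3 FPKM in EN and 13.4, 13.7 and 12.3 FPKM in EC, with overlapping groups. The remaining places were held by AABR07008118.1 and LOC102549726, which passed the test and are described with the others that did. Only 3 members exceeded 20 FPKM, 16 reached 10 FPKM and 39 lay under 5 FPKM.

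**Figure D1:**
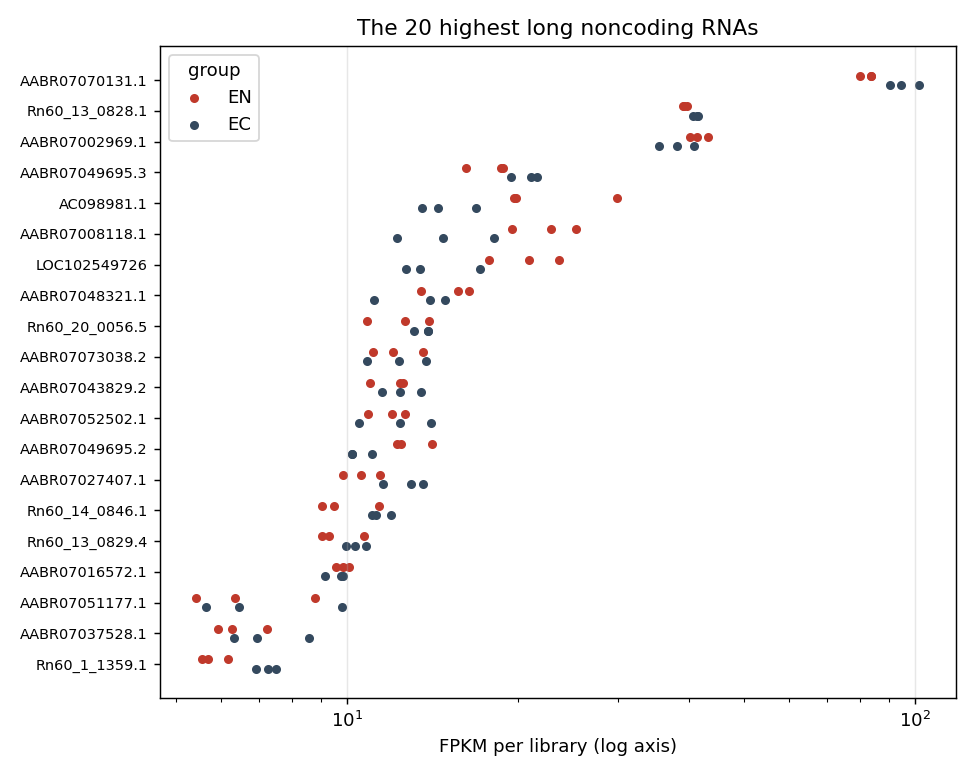
FPKM of the 20 highest long noncoding RNAs in each library, on a log axis, with EN libraries in red above EC libraries in dark blue for each gene. AABR07070131.1 lies apart at 80.2 to 101.9 FPKM, and most of the others lie between 5 and 25 FPKM. The groups overlap in some of these genes and do not in others.

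In the comparison of EN with EC, 8 of the 66 long noncoding RNAs passed (limma on log2(FPKM + 1), Benjamini-Hochberg adjusted p under 0.05 over the 12198 genes that averaged 1 FPKM or more). Of these, 6 were higher and 2 lower in EN, and 58 did not pass. The share of members past the test was 12.1%, against 14.4% of all tested genes and 15.3% of tested protein_coding genes, so it was near the background. By direction, 9.09% of the members were higher and 3.03% lower, against 7.24% and 7.14% of all tested genes and 7.66% and 7.61% of tested protein_coding genes. In these bulk samples, fewer cells that express a transcript and less of it per cell cannot be told apart. EN and EC values did not overlap for 18 members, or 27.3%, against 37.9% of all tested genes and 40.0% of tested protein_coding genes. EN lay above in 10 of them (15.2%, against 18.6% of all tested and 19.7% of protein_coding genes) and below in 8 (12.1%, against 19.4% and 20.3%). At an unadjusted p under 0.05, 16 members passed in limma, or 24.2%, against 32.3% of all tested genes and 33.8% of protein_coding genes. The members' median log2 change was -0.04, beside -0.003 over all tested genes, with 30 positive and 36 negative values from -0.67 to 0.75. On this scale the change of low transcripts is understated.

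The precision behind these changes was lower than for mRNAs. The median standard error of the log2 change was 0.15 for the members and 0.073 for all tested genes. Among models between 2 and 20 FPKM it was 0.15 for 63 members and 0.080 for 5528 protein_coding models, and 11.1% and 9.82% of them passed. The 8 calls sat close to the threshold, with adjusted p from 0.033 to 0.0498. No member passed without EN replicate 1, EN replicate 2 or EC replicate 2 (limma, with 13, 13 and 14 members at an unadjusted p under 0.05). Without EC replicate 3, 1 member outside the 8 passed, and 4 members passed without EN replicate 3 or without EC replicate 1. Of the 8 calls, only those of LOC102549726 and AABR07011682.1 were kept without EN replicate 3. With no filter on low genes 0 members passed (limma, 16 at an unadjusted p under 0.05), without the variance trend 1 passed, and with voom on the reads 2 passed, AABR07070131.1 and LOC102549726.

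**Figure D2:**
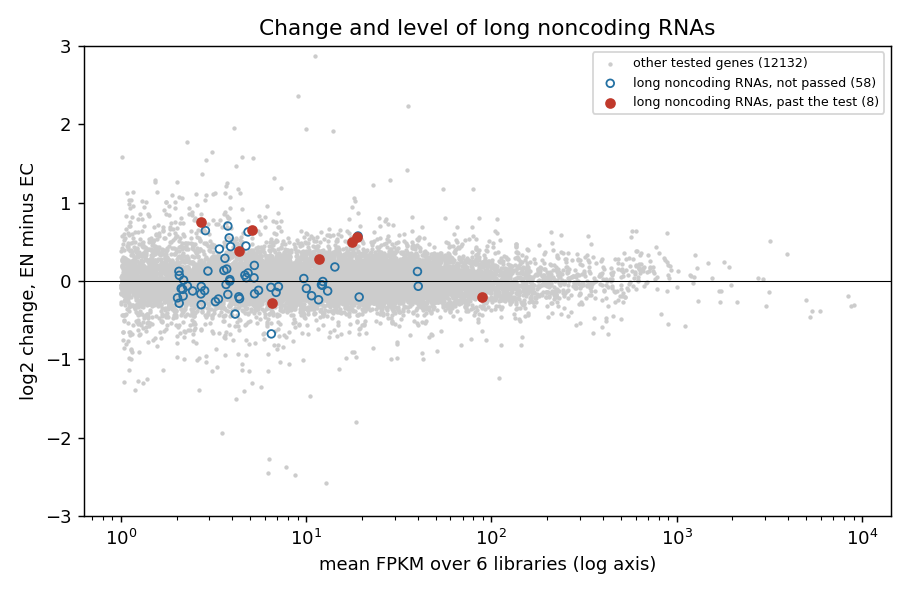
Log2 change (EN minus EC, on the log2(FPKM + 1) scale) against the mean FPKM over 6 libraries (log axis) for all tested genes, with the 8 long noncoding RNAs past the test as filled red points and the other 58 as open blue points. The long noncoding RNAs lie mostly below 20 FPKM and between -0.67 and 0.75.

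AABR07070131.1 was the most abundant of the members that passed, and it fell. Its mean was 82.5 ± 2.01 FPKM in EN and 95.6 ± 5.87 FPKM in EC (SD, n = 3 each). On the log2 scale this was -0.21, with a standard error of 0.051 (limma adjusted p = 0.039). Rn60_1_1359.1, a model of 2277 bases on chromosome 1 (134873400 to 134887841, minus strand), also fell, with 6.17, 5.69 and 5.57 FPKM in EN and 7.27, 6.92 and 7.49 FPKM in EC. Its groups did not overlap, and the log2 change was -0.27 (SE 0.067, adjusted p = 0.040). The call for either gene was lost with any 1 library left out, with adjusted p up to 0.131 and 0.127.

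LOC102549726, an uncharacterized gene on chromosome 20 (4871264 to 4873982, minus strand), rose. It had 23.6, 20.9 and 17.8 FPKM in EN and 17.2, 12.7 and 13.5 FPKM in EC, and every EN value exceeded every EC value. The mean was 20.8 ± 2.90 FPKM in EN and 14.5 ± 2.40 FPKM in EC (SD, n = 3 each), which is 1.44-fold (0.50 on the log2 scale, SE 0.13, adjusted p = 0.0498). It was the only member with small nucleolar RNA models inside its body, SNORD48 and SNORD52, on the same strand. Small nucleolar RNAs of the SNORD class guide methylation of other RNAs and are cut from the introns of a host transcript. SNORD48 had 4 reads over the 6 libraries and SNORD52 none. No member contained a miRNA model.

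LOC102549726 is spanned by gene models of the RT1-CE family, which encode class I histocompatibility antigens. RT1-CE7 and RT1-CE4 had log2 changes of -0.20 and -0.12 and did not pass (adjusted p = 0.410 and 0.605). RT1-CE2, whose model spans it, had 17 reads in all. Reads of closely related class I genes may be divided among models, so their values are uncertain. LOC102549726 still passed without EN replicate 3 or without EC replicate 1, and lost its call without any of the other 4 libraries, with an adjusted p of up to 0.148.

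The promoter of LOC102549726 is printed because it is the only member that matched an entry of the RefSeq promoter table, by its symbol (GRCr8 build, chr20:3880958-3881257, plus strand in that build). The sequence runs from 250 bases before the start to 50 bases after it, with the transcribed 50 bases in capitals.
LOC102549726: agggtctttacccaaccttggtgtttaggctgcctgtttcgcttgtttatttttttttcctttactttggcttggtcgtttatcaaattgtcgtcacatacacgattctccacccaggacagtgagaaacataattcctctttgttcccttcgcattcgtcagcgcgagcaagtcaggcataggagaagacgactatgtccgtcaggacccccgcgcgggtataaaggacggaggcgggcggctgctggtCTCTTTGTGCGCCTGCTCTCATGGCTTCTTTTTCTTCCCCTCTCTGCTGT
A TATA motif (TATAAA) begins 30 bases before the start, and 14.2% of the 33469 promoters in the table hold this motif on either strand. The window also holds 1 GC box (GGGCGG, or its reverse complement), as do 33.1% of all promoters, and 17 CpG dinucleotides, against a median of 7. The TATA motif and the GC box do not overlap each other, and a match is a description of the sequence only.

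AABR07049695.2, a model of 861 bases on chromosome 5 (133710150 to 133711520, plus strand), rose as well. It had 14.1, 12.3 and 12.5 FPKM in EN and 11.1, 10.2 and 10.2 FPKM in EC, with no overlap, a log2 change of 0.28 (SE 0.069, adjusted p = 0.043). Its neighbour on the same strand 6239 bases away, AABR07049695.3, had a log2 change of -0.20 and did not pass. The difference between these neighbours was not tested.

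The other members that rose were low or short. AABR07008118.1, a model of 157 bases on chromosome 2 (44266202 to 44272164, minus strand), had 22.9, 19.5 and 25.4 FPKM in EN and 18.2, 14.8 and 12.3 FPKM in EC, which came from 31 to 66 reads per library. AABR07015517.2, a model of 307 bases on chromosome 14 (61116674 to 61122664, plus strand), had 6.89, 5.40 and 7.08 FPKM in EN and 4.65, 3.02 and 3.64 FPKM in EC, from 14 to 37 reads. These were 1.5-fold and 1.71-fold differences in the mean, and the groups did not overlap in either gene.

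AABR07006724.1 on chromosome 1 (250105678 to 250200076, minus strand) had 5.31, 4.59 and 5.23 FPKM in EN and 4.001, 3.10 and 3.78 FPKM in EC. AABR07011682.1 on chromosome 2 (165917470 to 165931558, minus strand) had 4.40, 4.26 and 2.44 FPKM in EN and 2.0, 1.66 and 1.55 FPKM in EC, from 13 to 44 reads per library. It showed the largest log2 change among the 66 members, 0.75 (SE 0.19, adjusted p = 0.043), and a 2.13-fold difference in the mean, with groups that did not overlap. The adjusted p was 0.047 for AABR07008118.1, 0.033 for AABR07015517.2 and 0.049 for AABR07006724.1. AABR07006724.1 lost its call whichever library was left out. AABR07008118.1, AABR07015517.2 and AABR07049695.2 each kept theirs in 1 of the 6 fits, that without EC replicate 1, and AABR07011682.1 in that without EN replicate 3. The highest adjusted p with a library left out was 0.128 for AABR07008118.1 and 0.132 for AABR07049695.2 (both without EC replicate 2), 0.103 for AABR07015517.2 and 0.141 for AABR07006724.1 (both without EN replicate 1), and 0.133 for AABR07011682.1 (without EN replicate 2).

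**Figure D3:**
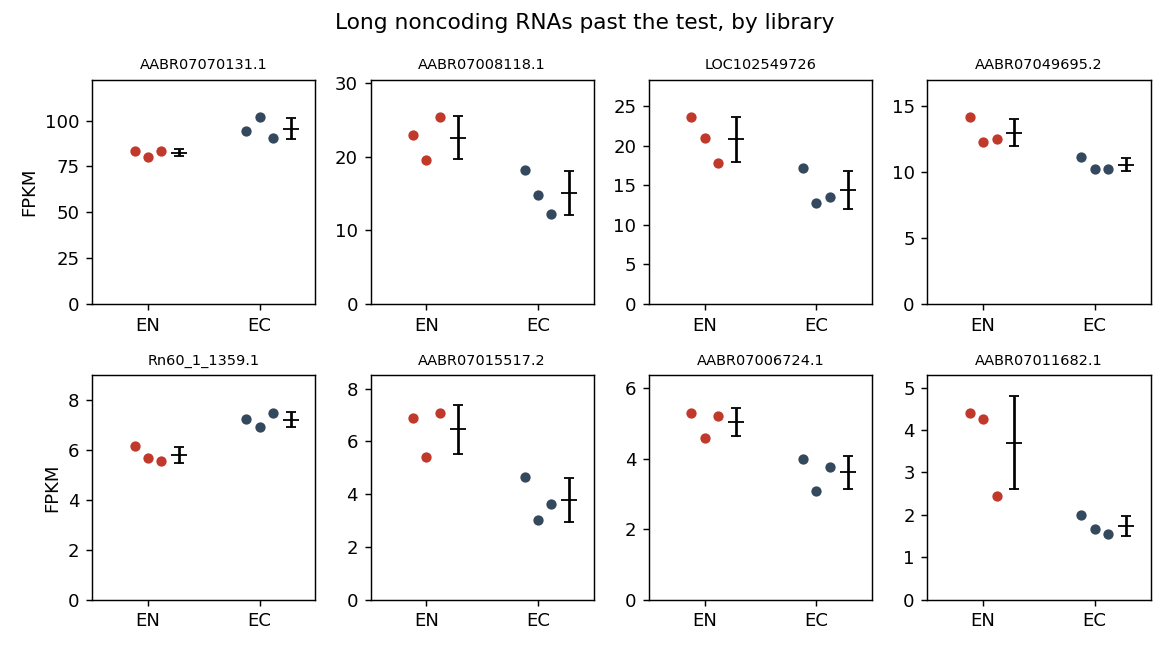
FPKM in each library for the 8 long noncoding RNAs past the test, with EN at the left and EC at the right of each panel, points for libraries and a bar for the mean ± SD (n = 3 each). In every panel the EN and EC points do not overlap, with EN lower for AABR07070131.1 and Rn60_1_1359.1 and higher for the other 6.

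The other members whose groups did not overlap did not pass (named after their values were seen). Besides Rn60_13_0828.1, AABR07049695.3 and AC098981.1 these were 7. AABR07049389.1 on chromosome 5 was higher in each EN library, at 5.19, 3.51 and 5.91 FPKM in EN and 1.36, 3.24 and 3.47 FPKM in EC. It rests on 3 to 14 reads per library, and its log2 change of 0.70 had a standard error of 0.27.

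Rn60_9_0428.1 on chromosome 9, upstream of Sema4c, a semaphorin gene, had 5.03, 4.42 and 4.47 FPKM in EN and 3.24, 3.84 and 2.48 FPKM in EC (adjusted p = 0.067). Rn60_X_0635.2 on chromosome X, downstream of Pcyt1b, a gene of phosphatidylcholine synthesis, had 3.04, 3.44 and 3.63 FPKM in EN and 5.54, 5.56 and 3.65 FPKM in EC (adjusted p = 0.103). It was the member that passed without EC replicate 3. AABR07027407.1 on chromosome 17 had 11.5, 9.84 and 10.6 FPKM in EN and 13.6, 12.97 and 11.6 FPKM in EC (adjusted p = 0.086). The EN values were thus all higher in Rn60_9_0428.1 and all lower in Rn60_X_0635.2 and AABR07027407.1.

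Of the last 3, AABR07071395.1 was higher in each EN library (log2 change 0.14), and AABR07060519.1 and AABR07027272.1 were lower (-0.19 and -0.28). Their adjusted p lay between 0.124 and 0.281. The remaining 48 members had overlapping groups.

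Each member was set beside its nearest protein_coding gene, by the smallest gap between gene bodies. The 66 members had 66 different nearest genes. The median gap of the pairs that do not overlap was 17229 bases. Of these pairs, 18 lay within 5 kb and 9 within 1000 bases, and 9 lay beyond 100 kb. In 18 pairs the noncoding RNA was divergent from its neighbour (median gap 11036 bases) and in 13 convergent with it (23716 bases). On the same strand, 19 noncoding RNAs lay upstream of the neighbour (11768 bases) and 13 downstream (24395 bases), and 3 pairs overlapped. The nearest gene was under 1 FPKM for 24 members, each of which was then the higher by the selection at 2 FPKM. With these 24, the member had the higher mean FPKM, which is per length, in 33 of 66 pairs. Where the neighbour was tested, the member was the higher of the pair in 9 of 42. Levels within these 42 pairs had a Spearman correlation of 0.13 and log2 changes a Spearman correlation of 0.17 across pairs, which share libraries and are not independent replicates.

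In the comparison of EN with EC, 7 of the 42 tested neighbours passed, 2 higher and 5 lower, against 14.4% of all tested genes. Member and neighbour had the same sign of change in 27 of 42 pairs. These were 8 of 12 divergent, 5 of 7 convergent, 9 of 15 upstream, 4 of 7 downstream and 1 of 1 overlapping pairs. The count stands without a comparison with other pairs of genes, and a shared change of member and neighbour was not tested. In 1 pair both passed in the same direction. That pair was AABR07070131.1 and Ncam1, the gene of the neural cell adhesion molecule (chromosome 8, 53839098 to 53901358, minus strand). They converge, and their 3′ ends are 478 bases apart. Ncam1 had 127.1, 129.1 and 134.9 FPKM in EN, all below its EC values of 150.0, 154.1 and 155.4 FPKM. On the log2 scale it fell by 0.23, with a standard error of 0.037 (limma adjusted p = 0.013). This call was lost without EN replicate 1, EN replicate 2, EC replicate 2 or EC replicate 3, with adjusted p of at most 0.065. The strand setting of the counting is not given in the sources used here, so reads of genes that run together in opposite directions may not be kept apart. By distance between start sites, Ncam1 is 69832 bases away and no longer the nearest gene.

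The other members past the test had neighbours that did not pass or were not tested. Il6st, the shared receptor subunit of the interleukin-6 cytokines, starts 17229 bases from AABR07008118.1 and was at 78.0 ± 7.65 FPKM in EN and 85.3 ± 1.69 FPKM in EC (SD, n = 3 each). Dhx15, an RNA helicase of splicing, lies 14082 bases downstream of AABR07015517.2 and was at 79.1 ± 1.93 FPKM in EN and 89.3 ± 6.11 FPKM in EC (adjusted p = 0.080). In both pairs the neighbour's log2 change was negative, -0.13 and -0.17, while the noncoding RNA was higher. Chd2, a chromatin remodelling ATPase, lies 2233 bases downstream of Rn60_1_1359.1 on the same strand and was at 7.32 ± 0.108 FPKM in EN and 7.08 ± 0.199 FPKM in EC. The nearest genes of AABR07006724.1 and AABR07011682.1, which are A1cf and LOC683581, were under 1 FPKM. LOC102549726 is overlapped by 4 protein_coding models, all at a gap of 0, and was paired with RT1-CE2, which is under 1 FPKM, because ties went to the smaller start coordinate. The tied RT1-CE7 and RT1-CE4 averaged 2.08 and 1.12 FPKM and did not pass.

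The neighbours that passed beside a member that did not were Cacybp, Hsd17b12, Grb14 and Klhl9, which were lower, and Bahcc1 and Zmiz1, which were higher (named after their values were seen). Hsd17b12, an enzyme of fatty acid elongation, was at 119.2 ± 7.18 FPKM in EN and 152.2 ± 4.71 FPKM in EC, and the noncoding AABR07052897.3, which ends 4289 bases before it, had a log2 change of 0.04 (SE 0.097). Zmiz1, a transcriptional coregulator, was at 59.3 ± 0.267 FPKM in EN and 47.9 ± 0.995 FPKM in EC, and AABR07024491.1, which starts 291327 bases away, had a log2 change of 0.01 (SE 0.30). Cacybp, a binding protein of calcyclin, was at 113.0 ± 6.79 FPKM in EN and 130.8 ± 5.36 FPKM in EC. Grb14, an adaptor of the insulin receptor, was at 33.9 ± 1.66 FPKM in EN and 44.1 ± 2.94 FPKM in EC. Their noncoding neighbours Rn60_13_0829.4 and AABR07052388.1 were at 9.69 and 3.04 FPKM in EN and 10.4 and 3.69 FPKM in EC. With a library left out, Zmiz1 kept its call in each of 6 fits. Without EC replicate 2 the adjusted p of Hsd17b12 was 0.05045, and without EN replicate 2 that of Grb14 was 0.062, so each lost its call there. Bahcc1, Klhl9 and Cacybp lost it without EN replicate 1, EN replicate 2, EC replicate 2 or EC replicate 3, and Cacybp also without EC replicate 1, with adjusted p of up to 0.129, 0.119 and 0.143.

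**Figure D4:**
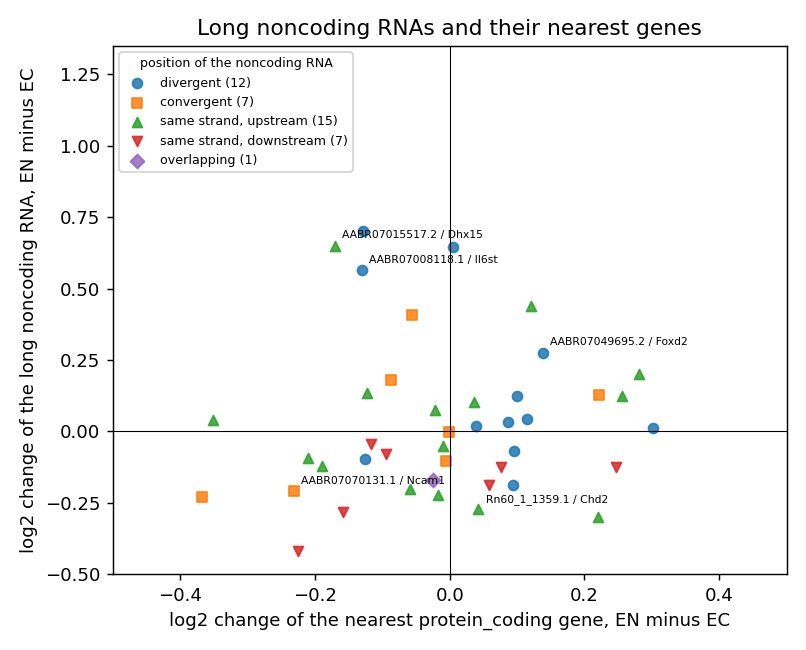
Log2 change of each long noncoding RNA (vertical) against that of its nearest protein_coding gene (horizontal), both EN minus EC, for the 42 pairs with a tested neighbour, with marker shapes for the position of the noncoding RNA. The points scatter around 0 in all quadrants, and the 5 labelled pairs are those whose noncoding RNA passed the test.

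Divergent pairs with start sites close together were followed by name (named after their positions were seen, except for Foxd2). In 6 divergent pairs the gap was at most 5 kb. The gap was 74 bases for AABR07054593.1 and Ncoa3, 348 for AABR07005535.1 and Plekha7, 420 for AABR07035273.1 and Pan3, 438 for AABR07049695.2 and Foxd2, 1505 for Rn60_14_0846.1 and Morc2, and 1902 for AABR07021823.2 and Exo1. Of these 12 genes, AABR07049695.2 alone passed the test. Foxd2, a forkhead transcription factor gene, had 6.50, 5.65 and 4.23 FPKM in EN and 5.24, 4.68 and 4.51 FPKM in EC. Its groups overlapped, and its log2 change was 0.14 (SE 0.14, adjusted p = 0.524). The noncoding RNA was the higher of this pair, at 12.95 ± 1.03 FPKM in EN and 10.5 ± 0.488 FPKM in EC, while Foxd2 was at 5.46 ± 1.149 and 4.81 ± 0.382 FPKM (SD, n = 3 each). In the other 5 pairs the coding gene was the higher. Pan3, a subunit of a poly(A) nuclease, was at 19.2 ± 0.867 FPKM in EN and 21.0 ± 1.72 FPKM in EC, and its partner AABR07035273.1 at 2.01 ± 0.175 and 2.22 ± 0.170 FPKM.

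The promoters of Foxd2 and Pan3 are shown because the divergent noncoding RNA starts within 500 bases of each in the Rnor_6.0 annotation. Ncoa3 and Plekha7, which also have such a partner, matched no entry of the promoter table. They are RefSeq sequences of the GRCr8 build, for Foxd2 chr5:133667434-133667733 and for Pan3 chr12:12631443-12631742, both on the minus strand, with the 50 bases from the coding gene's start in capitals. The start of the noncoding RNA was not placed on this build.
Foxd2: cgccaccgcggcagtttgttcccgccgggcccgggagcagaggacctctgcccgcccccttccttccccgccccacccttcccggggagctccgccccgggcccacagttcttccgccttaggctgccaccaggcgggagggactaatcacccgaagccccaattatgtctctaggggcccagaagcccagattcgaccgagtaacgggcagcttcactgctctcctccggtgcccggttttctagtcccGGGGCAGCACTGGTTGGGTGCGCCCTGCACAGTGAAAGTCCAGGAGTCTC
Pan3: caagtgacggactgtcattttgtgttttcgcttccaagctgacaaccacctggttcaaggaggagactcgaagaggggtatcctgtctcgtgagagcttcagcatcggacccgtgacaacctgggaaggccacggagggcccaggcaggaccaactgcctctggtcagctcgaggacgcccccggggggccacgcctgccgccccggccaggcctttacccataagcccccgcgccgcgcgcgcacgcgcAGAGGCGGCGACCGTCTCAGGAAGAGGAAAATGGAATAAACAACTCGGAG
They hold 21 and 25 CpG dinucleotides, more than 77.4% and 83.4% of all promoters in the table. Foxd2 has 3 GC boxes and 1 CCAAT box (CCAAT, found on either strand in 37.5% of promoters), and Pan3 has 1 GC box. Neither holds a TATA motif, nor an ETS motif (CCGGAAG, in 8.75% of promoters) or a CRE (TGACGTCA, in 1.83%).

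On the same strand, 3 members ended just before a coding gene (named after their positions were seen). AABR07032135.1 ended 32 bases before Csnk1g3, a casein kinase gene, AABR07042454.2 ended 120 bases before Haus7, an augmin subunit gene, and AABR07042301.1 ended 736 bases before Magea4, a MAGE family gene. Their group means were 4.01, 3.91 and 5.08 FPKM in EN and 4.74, 4.75 and 4.64 FPKM in EC, and their neighbours were at 18.8 to 21.1 FPKM. Neither these noncoding RNAs nor their neighbours passed. The single antisense member, Rn60_20_0041.1 on chromosome 20, lies within Gabbr1, a subunit gene of the GABA-B receptor, on the other strand. It was at 3.54 ± 1.01 FPKM in EN and 4.03 ± 0.372 FPKM in EC, and Gabbr1 was at 4.77 ± 0.162 and 4.87 ± 0.156 FPKM.

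A further 3 members differed by 5-fold or more between libraries without following the groups (named after their values were seen). AABR07000382.1 on chromosome 1 had 0.247, 6.24 and 8.45 FPKM in EN and 0.280, 0.229 and 13.7 FPKM in EC. It was thus near 0 in EN replicate 1, EC replicate 1 and EC replicate 2, with 4 to 5 reads each, and had 144 to 256 reads in the other libraries.

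AABR07044962.1 on chromosome 20 had 2.07, 0.260 and 2.62 FPKM in EN and 0.302, 0.343 and 8.12 FPKM in EC, and was high in EN replicates 1 and 3 and in EC replicate 3. AABR07052758.1 on chromosome 3 had 1.70, 1.40 and 10.1 FPKM in EN and 4.20, 19.9 and 1.67 FPKM in EC, and was highest in EC replicate 2 and in EN replicate 3. The high libraries differ among the 3 genes, and none passed. Such a span was seen in 93 of 5528 protein_coding models between 2 and 20 FPKM, or 1.68%, and in 4.55% of the members. The median ratio of the highest to the lowest library was 1.75 for members and 1.28 for protein_coding models in this range.

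**Figure D5:**
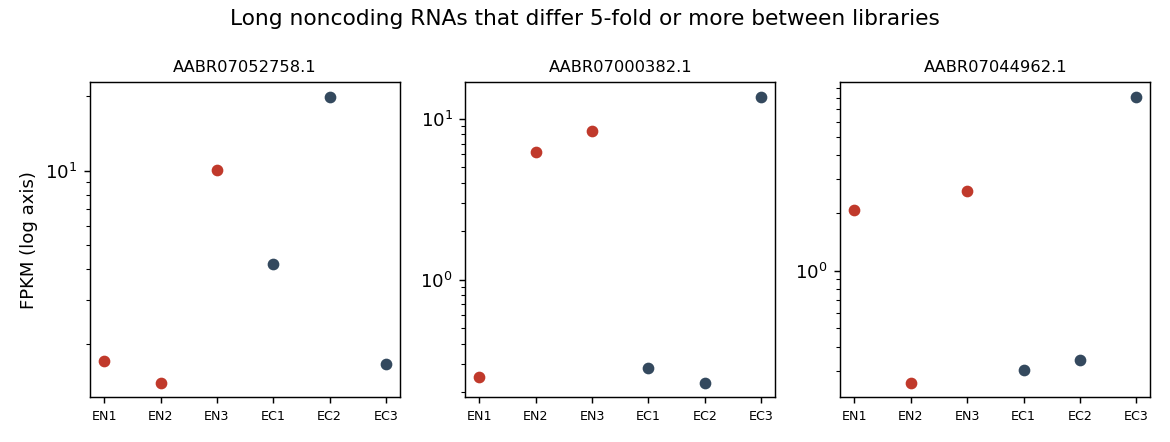
FPKM (log axis) in each of the 3 EN and 3 EC libraries for the 3 long noncoding RNAs that differed at least 5-fold between libraries. Each has high and low libraries in both groups.

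At the limit of 2 FPKM, the 3 members just inside were AABR07027272.1, Rn60_20_0046.4 and AABR07060133.1, at means of 2.07, 2.06 and 2.02 FPKM. The 3 models just outside were AABR07035796.1, AABR07021996.1 and Rn60_X_0691.2, at 1.97, 1.90 and 1.88 FPKM.

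Protein genes that act on noncoding RNA were read from 4 lists, each beside the 14.4% of all tested genes that passed. Of 18 genes of nonsense-mediated decay, which degrades transcripts with early stop codons and many spliced noncoding RNAs, 4 passed as higher, 0 as lower and 14 did not (median log2 change 0.08). The RNA helicase gene Dhx34 was at 13.9 ± 0.819 FPKM in EN and 9.11 ± 0.368 FPKM in EC, the adaptor Smg5 at 32.6 ± 0.151 and 25.6 ± 1.18 FPKM, and the helicase Upf1 at 46.8 ± 1.29 and 38.6 ± 0.299 FPKM (SD, n = 3 each). Their log2 changes were 0.56, 0.34 and 0.27, and all 3 stayed past the test with each library left out. The fourth, Upf3a, rose by 0.38 (named after its value was seen), with an adjusted p of 0.111 without EN replicate 2, and it also lost its call without EN replicate 1, EC replicate 2 or EC replicate 3.

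Of 14 genes of small nucleolar ribonucleoproteins, 3 passed as higher, 0 as lower and 11 did not (median 0.05). Fbl, the methyltransferase fibrillarin, was at 59.2 ± 1.16 FPKM in EN and 47.6 ± 2.07 FPKM in EC and passed with each library left out. Dkc1, the pseudouridine synthase dyskerin, and Gar1, its partner, rose by 0.43 and 0.30 on the log2 scale. Without EN replicate 1, EN replicate 2, EC replicate 2 or EC replicate 3, 1 gene of this list passed.

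Of 10 paraspeckle protein genes, 2 were higher (Hnrnpa1 and Ewsr1, by 0.25 and 0.70), 1 was lower (Matr3, by 0.18) and 7 did not pass (median 0.10). Ewsr1 was close to the 1 FPKM needed for testing, at 2.53 ± 0.581 FPKM in EN and 1.17 ± 0.203 FPKM in EC (SD, n = 3 each). Of 15 genes of the nuclear RNA exosome and its cofactors, 3 were higher (Exosc6, Exosc3 and Exosc1, by 0.31, 0.27 and 0.23), 1 was lower (Exosc9, by 0.25) and 11 did not pass (median 0.09). Exosc1 was named after its value was seen. In both lists no gene passed in limma without EN replicate 1, EN replicate 2 or EC replicate 2, with 4 to 6 genes of each list at an unadjusted p under 0.05. Without EC replicate 3 none of the paraspeckle genes and 1 of the exosome genes passed, and 1 paraspeckle gene passed without EC replicate 1.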

How the data were processed

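Per the labels' protocols, Trizol-extracted RNA went into Illumina TruSeq libraries. HISAT2 2.0.5 and the Rnor_6.0 build are named in the submitters' processing notes. The authors deposited FPKM for 33350 models. Not given in the sources used here are the counter, the annotation release and the strand setting. FPKM times gene length gave whole reads for 100% of values (within 0.001), so depth was worked back from it. The deposited scale per library did not follow the totals of these reads exactly. These reads are not known to be independent molecules.

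Genes averaging 1 FPKM or more were compared two-sided on the log2(FPKM + 1) scale (limma 3.58.1, R 4.3.3), with group as the only term, a trended variance prior and Benjamini-Hochberg adjustment. It was tested on simulated data. The members and lists were chosen with earlier results of these data known, and some genes of the lists are not reported here. Named genes are the 10 highest members, those past the test, those next to the limit, their nearest protein_coding genes, and up to 3 genes of each protein list past the test. Alternatives were other pseudocounts (0.1 and 0.5), filters, scalings, the replicate block, left-out libraries, no trend and limma voom on the reads. Others, added after seeing the data, applied these to the pairs. The check for outlying samples needs at least 4 per group and was not made.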

Additional observations from a re-analysis of the deposited data

How the results depend on the processing

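The number of long noncoding RNAs past the test, 8, was 6 to 8 with other pseudocounts, the TPM scale, median centring, quantile normalization and a minimum of 5 FPKM. It was 0 with no filter (16 at an unadjusted p under 0.05), 1 without the variance trend, 2 with voom on the reads (1 higher and 1 lower), and 0 to 4 with 1 library left out. The number of all genes past the test, 1754, was 866 with no filter, 1019 without the trend and 338 to 2059 with 1 library left out. The 1 pair in which noncoding RNA and neighbour both passed became 0 with no filter, without the trend, with the replicate block, by start sites and with any library left out. The number of members was 118 at 1 FPKM, 27 at 5 FPKM, 118 at 2 TPM and 62 to 68 with 1 library left out. With the replicate number as a block, 7 members passed, 5 of them among the 8, and 1907 genes. Deviations of same-numbered libraries correlated at 0.088, -0.095 and -0.020, and those of differently numbered libraries at -0.111 to 0.134. With 3 libraries per group, these values cannot decide whether the numbers pair the samples. Of 708 values of 45 named genes under other settings, 13 of 4 genes changed sign, none of them in a gene past the test. The log2 change of AABR07073038.2 was 0.010 on the TPM scale and 0.0086 with voom. With 1 library left out it was -0.088 to 0.072 for AABR07073038.2, -0.058 to 0.27 for Rn60_20_0046.4, -0.35 to 0.16 for AABR07035796.1 and -0.032 to 0.62 for Capns1. Of the 66 members, 23 averaged under 50 reads per library, which limits the precision of their values. The causes were not tested.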

Other observations

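Of 56 models with the biotype processed_transcript, which the rule does not cover, 17 averaged 2 FPKM or more, and 0 were higher and 1 lower in EN. That is 5.88% of the 17, against 14.4% of all tested genes. The lower one was Sv2b, a synaptic vesicle glycoprotein gene, at 5.51, 6.51 and 6.51 FPKM in EN and 8.48, 8.05 and 8.10 FPKM in EC, with no overlap (log2 change -0.36, SE 0.076, limma adjusted p = 0.027). It lost its call without any single library but EN replicate 3, with an adjusted p of up to 0.085. The highest was Snx3, a sorting nexin gene, at 148.6, 141.8 and 157.1 FPKM in EN and 161.9, 183.3 and 174.8 FPKM in EC. Its groups did not overlap, and it missed the threshold (adjusted p = 0.052). Of 805 models without a biotype, 324 reached 2 FPKM, and 16 were higher and 18 lower in EN. These 34 are 10.5% of the 324, against 14.4% of all tested genes. Many of the 324 carry the description of a protein, such as calmodulin, so they are not all noncoding RNAs. One of the lower models, on chromosome 1 (221146792 to 221158778, minus strand, Rnor_6.0), has no symbol and is described as metastasis-associated lung adenocarcinoma transcript 1. It had 11.3, 12.1 and 12.1 FPKM in EN and 13.9, 15.2 and 13.3 FPKM in EC, from 1380 to 1682 reads per library, with no overlap (log2 change -0.24, SE 0.064, limma adjusted p = 0.049). Its call was lost with any 1 library left out, with an adjusted p of up to 0.144. These genes were named after their values were seen.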
